A study of Saccharomyces cerevisiae with 30 samples.

Results

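The comparison described here is that of the mrc1-AQ cdc45-2A strain with the wild type in the HU block, read as TrAEL-seq signal over the whole genome of Saccharomyces cerevisiae. It takes 4 of the 30 libraries of the series, 2 of mrc1-AQ cdc45-2A and 2 of the wild type, chosen by genotype and time alone. All of these cells were grown in YPD, arrested in G1 phase with alpha factor, then released into medium that held hydroxyurea (HU) at 200 mM, and were still in it when collected. In mrc1-AQ the sites of Mrc1 that the Mec1 kinase phosphorylates, and that Rad53 binds, are mutated, and in cdc45-2A the motifs of Cdc45 that Rad53 binds are mutated. Both alleles are present together in the strain, so that their separate parts in a result cannot be told apart. The HU block libraries of pol1-1A, in which Pol1 no longer binds Rad53, and of the strain that carries all of these alleles, called the triple mutant (2 each), were used to place and rank origins and as values set beside the comparison.

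Replication starts at origins, from which a pair of forks moves apart. Origins of budding yeast differ in how early and in how many cells they fire, so that in an unperturbed S phase early, efficient origins go first and late or dormant ones follow or are replicated passively. HU depletes nucleotides, which stalls the forks of early origins close to where they started, and the checkpoint kinases Mec1 and Rad53 then hold back the origins that have not fired. Mrc1 carries the signal from Mec1 to Rad53 at the fork, and Cdc45 is part of the replicative helicase and, in yeast, brings Rad53 to the initiation factor Sld3. TrAEL-seq captures 3' ends of DNA, mostly of leading strands, and its signal in the HU block therefore piles up on either side of origins that have fired. The question was how signal is spread over chromosome regions, and over strong and weak origins, when the Rad53 binding sites of Mrc1 and Cdc45 are mutated.

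The deposited values are reads in windows of 2 kb, scaled to the mapped reads of the library (RPM). The mrc1-AQ cdc45-2A libraries held 4413039 and 7537299 mapped reads and the wild type libraries 2974768 and 7214255, of which 93.5% and 88.9% in mrc1-AQ cdc45-2A and 86.0% and 85.2% in the wild type lay in the windows. Libraries with the same replicate number were processed in 1 pool with different adaptors. Log2 signal in 2 kb windows correlated between replicates with r = 0.961 in mrc1-AQ cdc45-2A and 0.924 in the wild type (across windows, which are not independent). Reads concentrated at origins in both strains: the origin zones defined below held 57.8% and 63.6% of the reads in windows in mrc1-AQ cdc45-2A, 53.6% and 61.1% in the wild type, and 15.3% and 17.9% in the asynchronous wild type libraries spiked into the same pools. The point mutations cannot be read from windowed signal, so the genotypes rest on the labels.

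Origin zones were the 10 kb around each maximum of the signal averaged over the pol1-1A and triple mutant libraries of the HU block. There were 203 zones, and their strength was the mean signal in pol1-1A. Neither the place nor the rank of a zone thus used the 4 libraries compared, but the triple mutant carries the same mrc1-AQ and cdc45-2A alleles and helped to place the zones. Of the 203 zones 146 lay within 5 kb of a zone that pol1-1A alone would place, and 57 did not, among them 39 of the 41 zones with least pol1-1A signal. Those 57 were chosen for high signal with the same alleles, which largely set their rise in advance, so that counts over the 203 zones are a description and the 152 zones placed in pol1-1A alone, a set added after the data had been seen, carry the test. No list of annotated origins was used. Each zone held at least 3576 reads in the mrc1-AQ cdc45-2A libraries and at least 353 in the wild type libraries.

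Weak origin zones had more signal in mrc1-AQ cdc45-2A than in the wild type, and the strongest had, in RPM, slightly less. Of the 152 zones placed in pol1-1A alone, 65 (42.8%) differed at an adjusted p under 0.05 (limma-trend on log2(RPM + 1), Benjamini-Hochberg), 49 (32.2%) with more signal in mrc1-AQ cdc45-2A and 16 (10.5%) with less. In their weakest quintile by pol1-1A signal 26 of 30 rose and 0 fell, in the second weakest 20 of 30 rose and 2 fell, in the middle 3 of 30 rose and 3 fell, in the second strongest 0 of 31 rose and 2 fell, and in the strongest 0 of 31 rose and 9 fell. No other scaling and no fit without a library was run on these 152 zones. In the larger set below, falls among strong zones depended on the scaling and on single libraries. The median log2 ratios over the 152 zones, weakest to strongest, were 0.97, 0.49, 0.13, -0.23 and -0.35. The median zone of the weakest quintile held 1893 and 1950 RPM in mrc1-AQ cdc45-2A against 924 and 941 RPM in the wild type, and that of the strongest 4148 and 4568 RPM in mrc1-AQ cdc45-2A against 4969 and 5912 RPM in the wild type.

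The larger set of 203 zones takes in sites that are weak or silent in pol1-1A. Of these 203 zones, 127 (62.6%) differed by the same test, 108 (53.2%) with more signal in mrc1-AQ cdc45-2A and 19 (9.36%) with less. In all 108 zones that rose and in 18 of the 19 that fell the libraries of the strains did not overlap. Lack of overlap was also common beyond the zones that passed. In the strongest quintile 35 of 41 zones were lower without overlap, while 14 fell by the test. In the second strongest 8 of 40 were higher and 11 lower without overlap, while 1 rose and 4 fell by the test. In the middle quintile 37 of 41 were higher and 1 lower without overlap, while 26 rose and 1 fell by the test. In the second weakest and weakest quintiles all 40 and all 41 zones were higher without overlap. Lack of overlap was thus the rule over all zones and adds little to the test. The rise was more than 2-fold in 70 zones and more than 4-fold in 31 (log2 ratio over 1 and over 2), whereas no fall reached 2-fold. The log2 ratios of the replicates had the same sign in 194 of 203 zones. The 57 zones that pol1-1A alone did not place had a median log2 ratio of 2.01 (55 up, 0 down), and the 146 others had a median of 0.09 (53 up, 19 down). The number of falls depended on the processing. The median log2 ratio of all 203 zones was 0.41 in RPM. It was 0.07 with edgeR, which scales and tests differently and called 94 zones up and 87 down, and 0.03 with DESeq2, which called 94 up and 90 down. With reads scaled to those in windows 88 rose and 3 fell, and with reads not scaled at all, compared within each pool, 99 rose and 0 fell (limma, 105 zones passed without adjustment). Quantile normalization gives every library the same distribution of zone signals and so removes a difference in evenness by construction, and it called 53 up and 49 down.

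Over the 203 zones the change likewise went with strength, though not independently of the choice of zones. In the weakest quintile all 41 zones passed with more signal, 39 of them placed only with the triple mutant, and in the second weakest all 40 did, 14 of them so placed. In the middle quintile 26 of 41 rose and 1 fell, in the second strongest 1 of 40 rose and 4 fell, and in the strongest 0 of 41 rose and 14 fell. The 14 became 20 with the pool as a block (and the 4 became 7), but 1 when reads were scaled to those in windows and 1 without either mrc1-AQ cdc45-2A library or without wild type replicate 2. From weakest to strongest, the median log2 ratio of the quintiles was 2.07, 1.22, 0.42, -0.07 and -0.32. The order was the same in each pool, with 2.21, 1.17, 0.40, -0.02 and -0.27 in replicate 1 and 1.93, 1.27, 0.35, -0.09 and -0.36 in replicate 2. In the weakest quintile the rise held in all 41 zones under every scaling named above but quantile normalization (12 up, 5 down), while the median of the second strongest quintile lay between -0.45 (DESeq2) and 0.25 (unscaled reads). For the strongest quintile it lay between -0.70 (DESeq2, 41 of 41 down) and -0.01 (unscaled reads, 0 down). What a common scaling factor cannot move is the gap between the quintiles. The median ratio of the weakest quintile exceeded that of the strongest by 2.39 on the log2 scale (5.26-fold), by 2.48 in replicate 1 and 2.29 in replicate 2. It was 2.39 to 2.41 under the other scalings and 0.12 after quantile normalization. The size of this gap was largely set in advance, since 39 of the 41 weakest zones were placed only with the triple mutant. Over the 152 zones placed in pol1-1A alone the medians lay closer, at 0.97 in the weakest and -0.35 in the strongest quintile. No other scaling was run there.

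**Figure D1:**
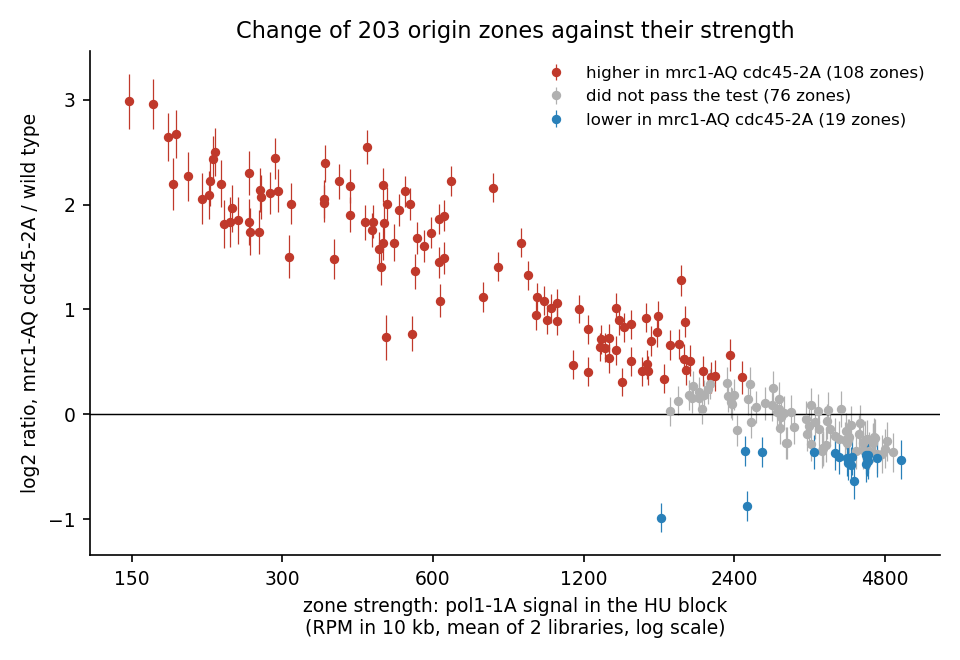
Log2 ratio of mrc1-AQ cdc45-2A over wild type (vertical, limma estimate ± SE, 2 libraries per strain) for 203 zones against their strength, the mean pol1-1A signal in RPM per 10 kb (horizontal, log scale). Zones that rose lie to the left and the 19 that fell mostly to the right, with 2 of the falls, at -0.98 and -0.87, well below zones of like strength. Of the 41 weakest zones, 39 were placed only with the help of the triple mutant.

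In levels over the 203 zones, the median zone of the weakest quintile held 1202 and 1026 RPM in the mrc1-AQ cdc45-2A libraries, against 255 and 257 RPM in the wild type libraries. The median zone of the strongest quintile held 4117 and 4488 RPM in mrc1-AQ cdc45-2A, against 4845 and 5726 RPM in the wild type. Neither pair of ranges overlapped. Counted as plain reads within a pool, the weakest quintile held 225855 reads in mrc1-AQ cdc45-2A and 34722 in the wild type in replicate 1 (6.50 times as many), and 338763 reads in mrc1-AQ cdc45-2A and 82738 in the wild type in replicate 2 (4.09 times). For the strongest quintile the same ratio was 1.24 in replicate 1 and 0.814 in replicate 2, beside 1.48 and 1.04 for all mapped reads. The excess in weak zones was thus seen in reads as well as in shares. However, 39 of these 41 zones were placed only with the triple mutant, which largely set the excess in advance. Strong zones had more reads in mrc1-AQ cdc45-2A in replicate 1 and fewer in replicate 2.

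**Figure D2:**
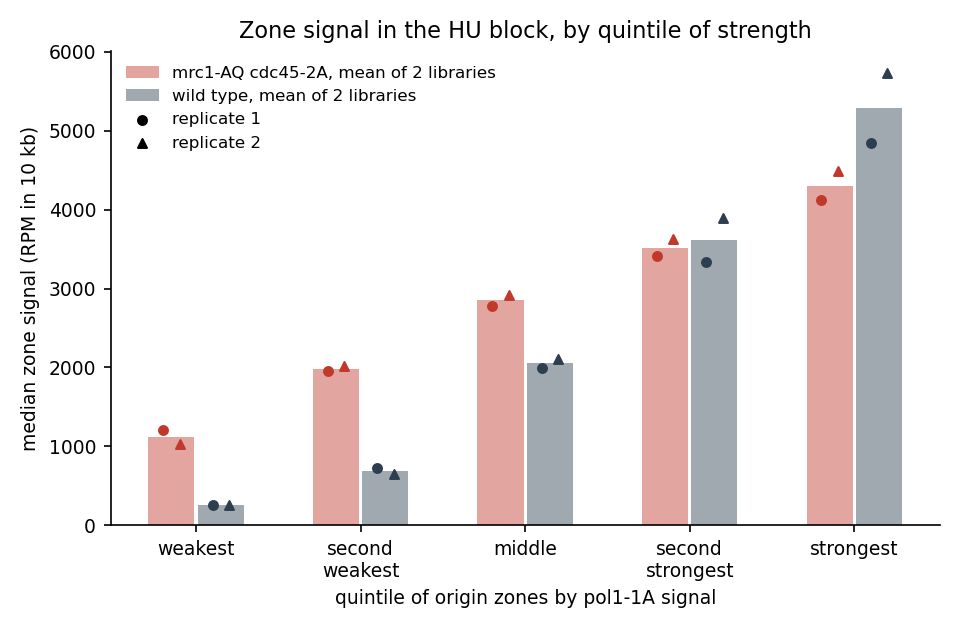
Median signal of the zones in each quintile of strength (vertical, RPM per 10 kb), weakest to strongest, in mrc1-AQ cdc45-2A (left bars) and wild type (right bars). Bars are means of 2 libraries and points the single libraries. The bars of mrc1-AQ cdc45-2A run from 1114 to 4303 RPM and those of the wild type from 256 to 5286 RPM. Of the 41 weakest zones, 39 were placed only with the help of the triple mutant.

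Signal was more even among origin zones in mrc1-AQ cdc45-2A, over the 203 zones and, by a smaller margin, over the 152 placed in pol1-1A alone. The Gini coefficient, which is 0 when all zones hold equal signal and nears 1 when a single zone holds everything, was 0.236 and 0.266 over the zones in mrc1-AQ cdc45-2A and 0.430 and 0.454 in the wild type. The difference of the means, -0.191, was -0.194 within the pool of replicate 1 and -0.187 within that of replicate 2. Exact two-sided permutation of 2 against 2 libraries gave p = 0.33, the smallest it allows. It took 69 and 66 zones to hold 50% of the zones' reads in mrc1-AQ cdc45-2A, and 49 and 47 in the wild type. The zone at the 90th percentile held 3.57 and 4.47 times the signal of that at the 10th in mrc1-AQ cdc45-2A, and 19.0 and 22.1 times in the wild type. Averaged over replicates the ratio in mrc1-AQ cdc45-2A was 0.196 times that in the wild type, a difference beyond that between replicates. The weak end of the 203 zones was mostly placed with the triple mutant, so part of these contrasts was set in advance. Over the 152 zones placed in pol1-1A alone the difference of the mean Gini coefficients was -0.124, and the percentile ratio is not given for them.

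**Figure D3:**
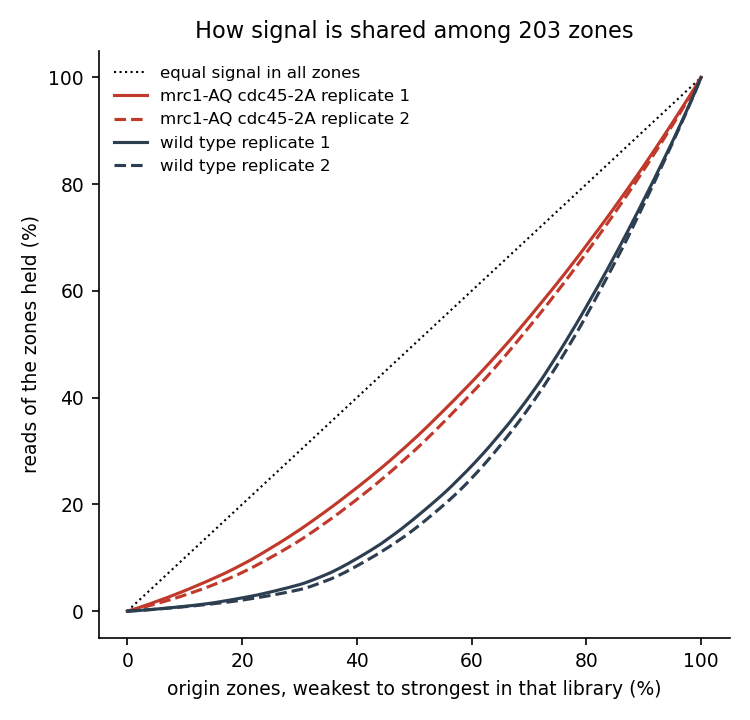
Share of the zones' reads (vertical, %) held by the weakest zones up to each share of 203 zones (horizontal, %), with zones ordered within each library. Both mrc1-AQ cdc45-2A curves lie nearer the dotted line of equal signal than both wild type curves (Gini 0.236 and 0.266 in mrc1-AQ cdc45-2A, 0.430 and 0.454 in the wild type). The 203 zones include the 57 that pol1-1A alone did not place.

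The strongest quintile of zones took 31.0% and 32.3% of the zones' reads in mrc1-AQ cdc45-2A and 43.3% and 44.9% in the wild type. Its mean share was 31.6 ± 0.88% in mrc1-AQ cdc45-2A against 44.1 ± 1.15% in the wild type (SD, n = 2 each), 12.5 percentage points lower (-12.3 and -12.7 in the pools, exact permutation p = 0.33, the smallest possible). The weakest quintile took 9.49% and 7.96% in mrc1-AQ cdc45-2A and 2.53% and 2.20% in the wild type, a mean share 3.68 times as large (exact permutation p = 0.33). Of its 41 zones 39 were placed only with the triple mutant, which largely set this rise in advance. In between, the second strongest quintile went the way of the strongest (24.5% and 25.4% in mrc1-AQ cdc45-2A, against 29.3% and 30.0% in the wild type) and the middle quintile the way of the weakest (20.7% and 20.8% in mrc1-AQ cdc45-2A, against 17.5% and 16.6% in the wild type). The 95% counting intervals of the shares of the strongest and weakest quintiles and of all zones (Wilson) are at most 0.0829 percentage points to either side, and cover counting error only. Regressed on the log2 pol1-1A signal, log2 zone signal had a slope of 0.43 and 0.52 in mrc1-AQ cdc45-2A and 1.06 and 1.14 in the wild type, so that the mean slope in mrc1-AQ cdc45-2A was 0.429 times that in the wild type.

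Of 203 zones, 203 and 202 reached the average of their library in mrc1-AQ cdc45-2A, against 142 and 141 in the wild type, but of the 152 placed in pol1-1A alone 150 and 149 did so in mrc1-AQ cdc45-2A, against 141 and 141 in the wild type. The contrast thus came mostly from zones placed with the triple mutant. The ranking of zones was nevertheless largely kept, with a Spearman rho of 0.940 between the mean signals of the strains (203 zones sharing libraries, as a description). Over the 152 zones placed in pol1-1A alone the Gini coefficient was 0.187 in mrc1-AQ cdc45-2A and 0.311 in the wild type (means of 2 libraries). The weakest quintile of these took 11.7% of the zones' reads in mrc1-AQ cdc45-2A and 6.01% in the wild type, and the strongest 28.2% in mrc1-AQ cdc45-2A against 35.6% in the wild type. Evenness measured over all 2 kb windows, origins or not, did not separate the strains: the Gini coefficient was 0.625 and 0.665 in mrc1-AQ cdc45-2A and 0.626 and 0.694 in the wild type, with overlapping libraries (exact permutation p = 0.667). The 10% of windows with most signal held 46.6% and 52.8% of reads in mrc1-AQ cdc45-2A and 53.0% and 62.6% in the wild type, and the libraries of the strains came close to each other. The share of reads in zones also overlapped between the strains (exact permutation p = 0.667).

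The zones with the largest rises all belonged to the weakest quintile of the 203, and pol1-1A alone placed 0 of these 10, so they are given as a description of sites with little signal without mrc1-AQ and cdc45-2A. The largest of the 203 was on chromosome XIV (122801 to 132800, R64), centred in SEC2, next to TOF1, which encodes the fork protein that binds Mrc1. It held 1149 and 906 RPM in mrc1-AQ cdc45-2A against 125 and 131 RPM in the wild type, a log2 ratio of 2.98 (SE 0.26, limma adjusted p = 9.42e-27). Next came a zone on chromosome X (294401 to 304400) centred in SMC3, which encodes a cohesin subunit, with 1294 and 1023 RPM in mrc1-AQ cdc45-2A against 119 and 182 RPM in the wild type (log2 ratio 2.96, SE 0.24). In both, the lower mutant library held at least 5 times the signal of the higher wild type library. On chromosome IV (745401 to 755400) the zone centred in SWI5, which encodes a transcription factor of the M/G1 transition, had 1224 and 1081 RPM in mrc1-AQ cdc45-2A against 159 and 203 RPM in the wild type (log2 ratio 2.67, SE 0.23). The zone on chromosome XII (883801 to 893800) between SMC6, of the Smc5-Smc6 complex, and IKI3, of Elongator, had 1202 and 1133 RPM in mrc1-AQ cdc45-2A against 167 and 207 RPM in the wild type (log2 ratio 2.64, SE 0.23). These 4 zones ranked 199 to 203 of 203 by strength, that is among the 5 with least signal in pol1-1A.

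The next largest rise was in a zone of higher signal, on chromosome XIII (155601 to 165600) at CMP2, the gene of a calcineurin subunit, next to SML1, the inhibitor of ribonucleotide reductase. It had 2046 and 1852 RPM in mrc1-AQ cdc45-2A against 431 and 257 RPM in the wild type (log2 ratio 2.55, SE 0.16). The remaining 5 of the 10 largest rises lay at RPI1 and XBP1 on chromosome IX, VCX1 on IV, between CRP1 and MRPL6 on VIII and between RRN10 and NCL1 on II, with log2 ratios of 2.30 to 2.50. Genes are given as landmarks only, since the signal does not measure their expression. All 10 lay at least 18.6 kb from the next zone. The smallest log2 ratio in the weakest quintile was 1.40.

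Falls were smaller and lay mostly in strong zones, with a pair of exceptions, and pol1-1A alone placed all 10 of the zones named for them. The largest was in a zone of middle strength on chromosome II (266201 to 276200), centred in KAP104, an importin gene, beside GAL7 of the galactose gene cluster. It held 1032 and 819 RPM in mrc1-AQ cdc45-2A against 1741 and 1903 RPM in the wild type, 1.98-fold less (log2 ratio -0.98, SE 0.14, limma adjusted p = 1.05e-11). It was the only zone of the middle quintile that fell. The second was on chromosome XIV (630801 to 640800) between RPC34, of RNA polymerase III, and SWM2, with 1678 and 1755 RPM in mrc1-AQ cdc45-2A against 2885 and 3427 RPM in the wild type (log2 ratio -0.87, SE 0.14). The third lay on the same chromosome (549401 to 559400) next to BDP1, of the polymerase III factor TFIIIB, with 2956 and 3077 RPM in mrc1-AQ cdc45-2A against 4397 and 5014 RPM in the wild type (log2 ratio -0.64, SE 0.16). In these 3 zones no library of either strain overlapped the other strain.

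The other 7 of the 10 largest falls were zones of the strongest quintile with log2 ratios of -0.48 to -0.42, at IML1 on chromosome X, SPF1 and VAB2 on V, DCV1 on VI, TRX1 on XII, NTH2 on II and FRE3 on XV. The zone beside NTH2 (chromosome II, 232801 to 242800) was the strongest of all in pol1-1A, and held 4429 and 4881 RPM in mrc1-AQ cdc45-2A against 5823 and 6745 RPM in the wild type (log2 ratio -0.43, SE 0.18, limma adjusted p = 0.0335). The zone at SPF1 (chromosome V, 88801 to 98800), near MCM3, which encodes a subunit of the replicative helicase, held 3800 and 3972 RPM in mrc1-AQ cdc45-2A against 4890 and 5927 RPM in the wild type. These 7 did not pass when reads were scaled to those in windows, although their log2 ratios were then larger in size (-0.57 to -0.51), nor when reads were left unscaled, nor without any one of 3 libraries (either mrc1-AQ cdc45-2A library or wild type replicate 2). The falls at KAP104, at RPC34 and at BDP1 passed in each of those fits except that on unscaled reads.

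The same pair of alleles also separates the triple mutant from pol1-1A. These libraries placed and ranked the zones and come from the same pools, so the values are set beside the comparison as a description. There 144 zones (70.9%) differed, 142 (70%) with the triple mutant higher and 2 (0.985%) with it lower (limma, adjusted p under 0.05). Of the 108 zones that rose in mrc1-AQ cdc45-2A, 107 rose in the triple mutant. Of the 19 that fell, 2 fell in the triple mutant, those at KAP104 (log2 ratio -0.54) and at RPC34 (-0.69), and the remaining 17 did not pass. The median log2 ratio of the 19 was -0.003 for the triple mutant over pol1-1A, against -0.42 for mrc1-AQ cdc45-2A over the wild type. As a set, in RPM, these zones were thus not lower in the triple mutant. The SEC2 zone had 894 and 803 RPM in triple mutant libraries, against 171 and 125 RPM in those of pol1-1A (log2 ratio 2.52), and the SMC3 zone 1225 and 1027 RPM in triple mutant libraries, against 118 and 212 RPM in those of pol1-1A (2.81). The Gini coefficient over zones was 0.259 and 0.263 in the triple mutant and 0.400 and 0.424 in pol1-1A.

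Zones differed in what became of their signal in the wild type after HU was removed. Of the 108 zones that rose in mrc1-AQ cdc45-2A, 72 held more signal in the wild type at 40 minutes than in the HU block and 36 held less, and all 19 zones that fell and all 76 that did not pass held less. The wild type HU block signal enters both the test of a zone and its later gain or loss. A low value there favours a rise and a gain alike, so the values for zones that rose or fell are a description. The median 2 kb window also gained over that time (121 and 111 RPM at 40 minutes, 57.5 and 36.6 RPM in the HU block), so a gain is not particular to these zones. In the weakest quintile the median zone of the wild type held 257 RPM in the HU block, 204 RPM at 20 minutes and 755 RPM at 40 minutes after HU was removed. In the strongest quintile it held 5362, 1871 and 357 RPM at these times. The 108 zones that rose had a median of 571 RPM in the wild type HU block and 978 RPM at 40 minutes, and the 19 that fell 4984 and 354 RPM. Signal at 40 minutes can come from an origin in the zone or from a fork that arrives from outside, and which of these it is was not tested. Distance to a chromosome end had a median of 213 kb for zones that rose and 179 kb for zones that fell (213 kb over all zones). Zones that rose lay a median of 41 kb from the nearest stronger zone, those that fell 42 kb and those that did not pass 75.5 kb.

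Taken over contiguous 20 kb segments that cover the single-copy genome, signal rose in more segments than it fell in. Of 600 segments, 171 (28.5%) differed, 109 (18.2%) up and 62 (10.3%) down (limma, adjusted p under 0.05). In each of these the libraries of the strains did not overlap, and how many of the other segments lacked overlap too is not given here. The split depends on the processing here as well, with 85 up and 70 down by edgeR, 116 up and 37 down by DESeq2, 138 up and 134 down after quantile normalization, and 54 up and 0 down on unscaled reads. The count fell to between 83 and 145 when any one library was left out, to 83 without wild type replicate 2 and to 96 without either mrc1-AQ cdc45-2A library. Segments that rose had a median of 1927 RPM in mrc1-AQ cdc45-2A against 775 RPM in the wild type. Segments that fell had 3775 RPM in mrc1-AQ cdc45-2A against 5049 RPM in the wild type. The median over all 600 segments was 828 RPM in mrc1-AQ cdc45-2A and 528 RPM in the wild type. Segments that rose were thus poor in wild type signal beside those that fell, but not beside the median segment. A zone centre lay in 81 of the 109 that rose and in 40 of the 62 that fell, compared with 200 of 600 in all. Part of these centres were placed only with the triple mutant, which carries the same alleles. The count among segments that rose was thus partly set in advance and is a description.

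The largest rise of a segment was on chromosome VI (60001 to 80000, RPO41 to CAF16), where no zone had been placed, with 1318 and 1002 RPM in mrc1-AQ cdc45-2A against 255 and 233 RPM in the wild type (log2 ratio 2.23, SE 0.59, limma adjusted p = 0.00396). The next were on chromosome XIV (120001 to 140000), which holds the SEC2 zone, and on chromosome IX (160001 to 180000), which holds XBP1, at log2 ratios of 2.19 and 2.15. The segments on VI and at SEC2 did not pass without either mrc1-AQ cdc45-2A library or without wild type replicate 2 (adjusted p of 0.0613 to 0.159). Segments on chromosome IV (740001 to 760000) and chromosome VIII (380001 to 400000) completed the 5 largest rises, at 2.04 and 1.96, of which the one on IV did not pass without mrc1-AQ cdc45-2A replicate 1 (adjusted p = 0.0503). The largest fall was on chromosome XIV (640001 to 660000, ATG3 to ACC1), with 364 and 263 RPM in mrc1-AQ cdc45-2A against 1158 and 865 RPM in the wild type (log2 ratio -1.69, SE 0.64, limma adjusted p = 0.0439), which did not pass without any one of the 4 libraries (adjusted p of 0.137 to 0.396). The segment before it (620001 to 640000), which holds the RPC34 zone, fell by 0.87 on the log2 scale. The others of the 5 largest falls were on chromosome X (380001 to 400000, -1.02), chromosome VII (460001 to 480000, up to PMA1, the plasma membrane proton pump gene, -0.92) and chromosome II (260001 to 280000, up to GAL1, -0.89). Each of these 3 failed to pass without mrc1-AQ cdc45-2A replicate 2 (limma adjusted p of 0.0542 to 0.257), and the one on X also without either wild type library.

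Most runs of adjoining segments were single segments in both directions. The 62 that fell lay in 43 runs, of which 31 were single and the longest 80 kb, and the 109 that rose lay in 98 runs, of which 87 were single and the longest 40 kb. Longer runs held 31 of the 62 segments that fell (50%) and 22 of the 109 that rose (20.2%), a difference that was not tested. The longest fall ran over chromosome X from 360001 to 440000 with 13514 and 13194 RPM in mrc1-AQ cdc45-2A, against 17399 and 19033 RPM in the wild type. Falls of 60 kb lay on chromosomes I, II, III, VII and XIV, the one on III from 20001 to 80000, starting within the MRC1 gene, with 10264 and 10322 RPM in mrc1-AQ cdc45-2A against 13233 and 15311 RPM in the wild type. Near chromosome ends little was seen: of 60 segments within 30 kb of an end, 2 rose and 1 fell, and their median log2 ratio was 0.12, as over all 600 segments.

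Whole chromosomes shifted by small amounts. The share of reads differed on 10 of 16 chromosomes (62.5%, limma on log2 shares, adjusted p under 0.05), 5 up and 5 down, and the shares of a library sum to 100%, so a gain on some requires a loss on others. Chromosome XVI gained most, with 7.99% and 7.94% of reads in mrc1-AQ cdc45-2A against 6.85% and 6.59% in the wild type (log2 ratio 0.25, SE 0.03, adjusted p = 7.14e-05). It held none of the 41 strongest zones among its 17, of which 11 rose and 0 fell (108 and 19 of 203 over all chromosomes). Chromosome XV also gained, with 9.41% and 9.29% in mrc1-AQ cdc45-2A against 8.71% and 8.62% in the wild type (log2 ratio 0.11). Chromosome X lost most, with 6.88% and 6.93% in mrc1-AQ cdc45-2A against 7.71% and 8.14% in the wild type (log2 ratio -0.20, SE 0.04, adjusted p = 0.0031). It held 6 of the strongest zones among its 14, of which 7 rose and 3 fell. Chromosomes IV and VII each held 4 of the strongest zones, but the share of IV rose (log2 ratio 0.07) and that of VII fell. Whether the share of a chromosome goes with its strong zones was not tested. Chromosome VII had 8.42% and 8.40% in mrc1-AQ cdc45-2A against 9.06% and 9.05% in the wild type (log2 ratio -0.11).

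These 4 chromosomes, XVI, XV, X and VII, passed in each fit that left out a library. Chromosomes VIII, IV and XI (up) and III, V and XII (down) passed in the full fit, with log2 ratios of 0.14, 0.07, 0.07, -0.18, -0.10 and -0.08, but in 0 to 3 of the 4 fits that left out a library. Chromosome XIV, with 8 of its 12 zones up and 2 down, did not pass in total, with 4.44% and 4.30% of reads in mrc1-AQ cdc45-2A against 4.46% and 4.24% in the wild type. Chromosomes I, II, VI, IX and XIII did not pass either, with log2 ratios of -0.14 to 0.03.

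**Figure D4:**
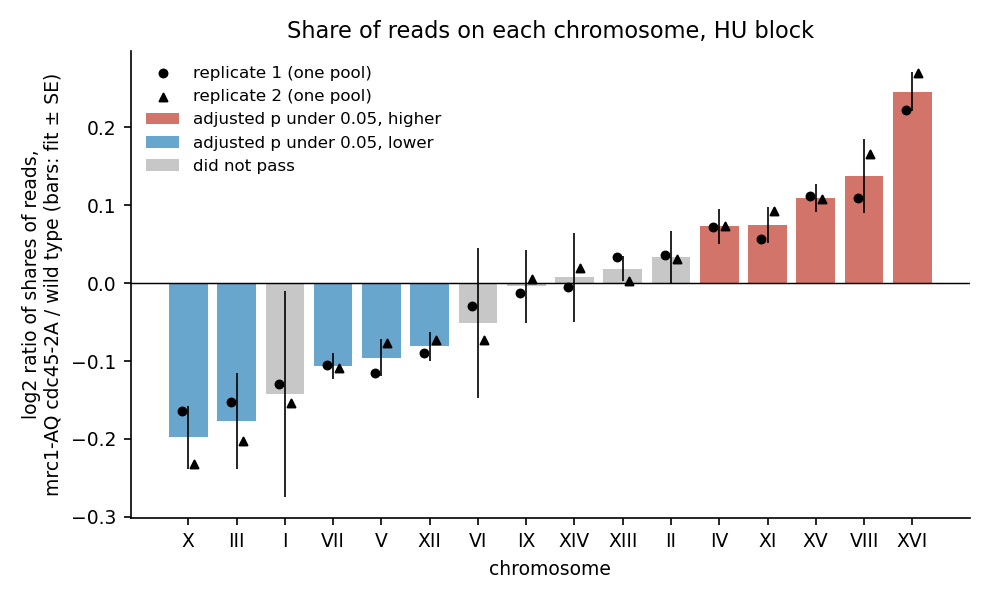
Log2 ratio of the share of reads on each chromosome, mrc1-AQ cdc45-2A over wild type (bars, limma estimate ± SE, with points for the ratio within each pool), in order of size. Chromosome X lies lowest at -0.20 and chromosome XVI highest at 0.25, and the points of both pools lie on the same side of 0 for each chromosome that passed.

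In single 2 kb windows the changes were finest in place. Of 5814 windows with enough signal, 1287 (22.1%) differed, 844 (14.5%) up and 443 (7.62%) down (limma, adjusted p under 0.05). The median log2 ratio over all windows was -0.25. Falls were nearly lost with edgeR (911 up, 13 down) and fewer with DESeq2 (932 up, 96 down), while quantile normalization gave 904 up and 946 down. Windows within 5 kb of a zone centre made up 17.8% of those tested, 54.0% of those that rose and 49.4% of those that fell. Of the 203 centres 57 were placed only with the triple mutant, so the share among windows that rose was partly set in advance and is a description. Windows over 20 kb from any zone centre had a median of 30.6 and 28.8 RPM in mrc1-AQ cdc45-2A and 34.6 and 31.2 RPM in the wild type. Their means were 52.0 and 44.7 RPM in mrc1-AQ cdc45-2A and 39.2 and 32.9 RPM in the wild type, and 207 of 2303 rose and 2 fell.

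Close to zone centres signal rose at strong zones too. Within 2 kb of the centre of a strongest-quintile zone 34 of 85 windows rose and 2 fell, whereas at 2 to 5 kb 0 of 124 rose and 85 fell. At the weakest quintile 80 of 84 windows within 2 kb rose, and 65 of 127 at 2 to 5 kb, and 0 fell at either distance. For 39 of its 41 zones the centre was a maximum placed only with the triple mutant. A rise at those centres was thus largely set in advance, and the values there are a description. The mean profile of the strongest zones had a peak on either side of the centre in both strains, reaching 1057 and 1157 RPM per 2 kb in mrc1-AQ cdc45-2A and 1359 and 1602 RPM in the wild type, and a trough at the centre of 506 and 565 RPM in mrc1-AQ cdc45-2A against 272 and 291 RPM in the wild type. At the weakest zones the centre itself held 300.4 and 271 RPM in mrc1-AQ cdc45-2A, against 26.0 and 32.0 RPM in the wild type, which was lower there than at 15 to 20 kb (58.5 and 49.8 RPM). Part of the change in a 2 kb window thus goes with where signal lies around a centre, which zone sums and segments register less. Widening the zones to 20 kb, for the 170 that had no neighbour within that distance, gave median log2 ratios of 1.42 for the weakest and -0.39 for the strongest quintile. At 10 kb the same zones had 2.06 and -0.34, so the rise of the weakest was smaller in the wider zones.

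**Figure D5:**
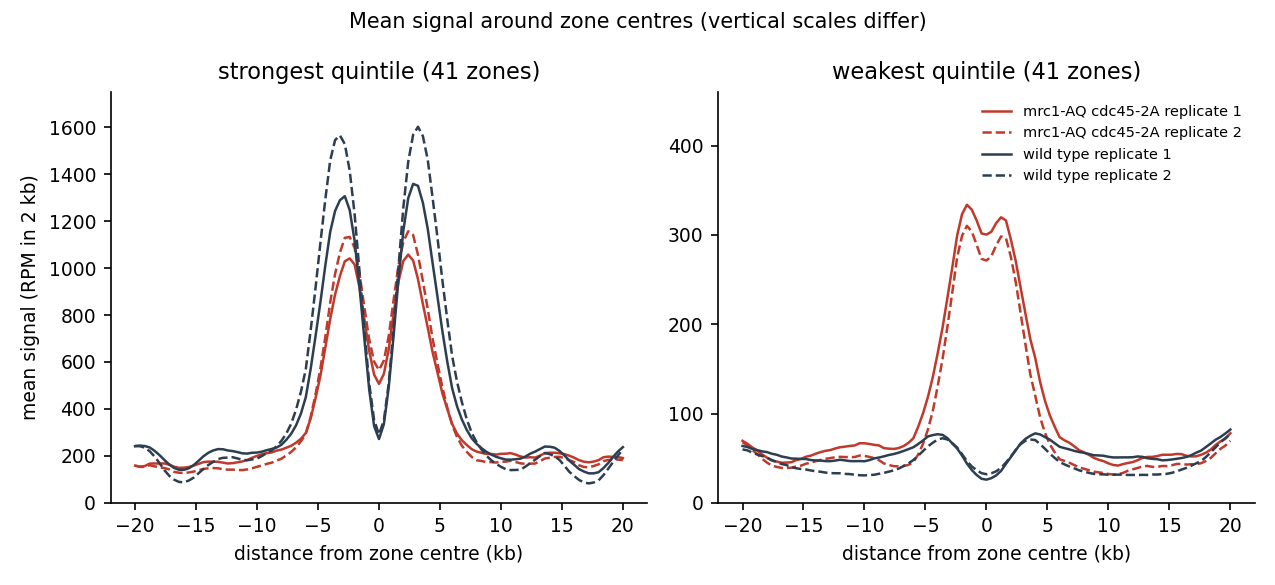
Mean signal per 2 kb window (vertical, RPM, scales differ) against distance from the zone centre (horizontal, kb) for the strongest and the weakest quintile of zones, 1 line per library. At strong zones the mrc1-AQ cdc45-2A lines have lower flanks and a higher centre than the wild type lines, and at weak zones they peak above 300 RPM where the wild type lines stay under 80 RPM within 5 kb of the centre. Of the 41 weakest zones, 39 were placed only with the help of the triple mutant, which carries the same alleles.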

How the data were processed

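Per the labels and the study's methods, the authors trimmed reads with Trim Galore 0.6.5, mapped them with Bowtie2 2.4.1 to build R64, removed duplicates, cut each read to its 5' nucleotide, left out repeated regions (rDNA, Ty elements, subtelomeres) and summed both strands in SeqMonk. The deposited signal is in RPM of all mapped reads, in 60303 running windows of 2 kb every 0.2 kb. Reads outside the windows (6.51% and 11.1% in mrc1-AQ cdc45-2A, 14.0% and 14.8% in the wild type) enter the divisor. Values were whole multiples of 1 read in 100% of cases, to within 0.01 of a read, which gave back the reads. Coordinates are of R64. Quintiles rank the zones by mean pol1-1A signal.

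Non-overlapping windows of 2 kb (mean of at least 5 RPM), sums of 10 of them (20 kb segments, at least 10 kb) and 10 kb origin zones (maxima at least 10 kb apart, prominence at least 0.5 times the mean) were tested with limma-trend 3.58.1 on log2(RPM + 1) over the 8 HU block libraries (4 strains), contrast mrc1-AQ cdc45-2A minus wild type, in R 4.3.3. Ratios on that scale understate changes of low signal. Chromosome shares were tested likewise on log2 percent. Single values were compared by exact permutation. Benjamini-Hochberg adjustment ran over each table, threshold 0.05. edgeR 4.0.16 and DESeq2 1.42.0 on the recovered reads were alternatives. The scripts were tested on simulated data. Replicates are separate libraries. The limma p-values rest on a spread between replicates that is largely pooled over features of like signal. They do not measure the spread of a single zone's own libraries. The CMP2 zone, with 431 and 257 RPM in the wild type, had an SE of 0.16. The zone between CRP1 and MRPL6, with 270 and 290 RPM in the wild type, had an SE of 0.18.

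Replicate numbers pair the samples, since the labels put equal numbers in 1 pool. Differences between replicates correlated by 0.459 between the strains (0.183 to 0.708 over 6 pairs of HU block strains). Named were the 10 largest rises and 10 largest falls of zones, and 5 and 5 of segments, among those that passed without overlap, and all chromosomes. The zone at YCR025C was chosen after its values were seen. The members, lists and tests were chosen with earlier results of these data known. The spike-in libraries entered no test. Sequences and annotated origins are not used here.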

Additional observations from a re-analysis of the deposited data

Results flagged for a closer look

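The difference between mrc1-AQ cdc45-2A and the wild type was compared, in each of 203 zones, with that between the triple mutant and pol1-1A. It differed in 1 zone (limma, adjusted p = 0.0121; 16 zones passed without adjustment), on chromosome III (158601 to 168600) at YCR025C, between PMP1 and NPP1. The zone held 4644 and 4700 RPM in mrc1-AQ cdc45-2A and 1762 and 2107 RPM in the wild type (log2 ratio 1.28), and 2622 and 2466 RPM in the triple mutant and 1581 and 2178 RPM in pol1-1A (log2 ratio 0.45). The difference of the ratios was 0.82 on the log2 scale. The zone was of middle strength (rank 102 of 203), and its rise in mrc1-AQ cdc45-2A was the largest of the middle quintile. After quantile normalization it was again this zone alone that passed (1.47 on the log2 scale, limma adjusted p = 8.53e-07; 14 zones without adjustment).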

How the results depend on the processing

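With the pool as a replicate block 1652 windows, 216 segments, 138 zones and 10 chromosomes passed for mrc1-AQ cdc45-2A against the wild type, and 147 zones for the triple mutant against pol1-1A, so that the block moved none of these counts by over 1.5 times, though falls in the second strongest quintile became 7 (4 without it). The single values have the same mean differences within pools, where sign flips of 2 pairs can give no p below 0.5. Leaving out a library gave 895 to 1154 windows (1287 with all), 83 to 145 segments (171), 101 to 120 zones (127), 4 to 8 chromosomes (10), and 122 to 165 zones for the triple mutant (144). A lone library is then assumed to vary like the other groups. The 19 zones that fell became 3 without mrc1-AQ cdc45-2A replicate 1 or wild type replicate 2, and 4 without mrc1-AQ cdc45-2A replicate 2. The 10 chromosomes became 4 without mrc1-AQ cdc45-2A replicate 1, 5 without mrc1-AQ cdc45-2A replicate 2 and 6 without wild type replicate 2. Quantile normalization gave 1850 windows with falls in the majority, 272 segments and, for the triple mutant, 90 zones. A fit of only the 4 libraries compared gave 277 segments. Of the alternatives chosen after the data had been seen, reads not scaled, with the replicate block, gave 54 segments, and zones placed in pol1-1A alone gave 65 of 152 zones. Beyond what quantile normalization and the smaller number of zones do by construction, the cause was not tested.

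The difference in the Gini coefficient over 2 kb windows (-0.015 with all libraries) was -0.049 to 0.020 without 1 library, and positive without mrc1-AQ cdc45-2A replicate 1 (0.0052) or wild type replicate 2. The share of reads in zones (3.27 points higher) gave -0.475 to 7.02, negative without wild type replicate 1, and -3.24 with zones of pol1-1A alone. The Gini coefficient over zones (-0.191) gave -0.206 to -0.176 without a library, -0.167 at a prominence of 1 and -0.124 with zones of pol1-1A alone. The share of the strongest quintile (-12.5 points) gave -13.3 to -11.7 without a library, -15.1 at a prominence of 0.25, -9.45 at 1, -11.2 with strength taken from pol1-1A and the triple mutant and, both chosen after the data had been seen, -7.41 with zones of pol1-1A alone and -10.7 with zones 20 kb wide. The share of the weakest quintile (6.36 points) gave 5.59 to 7.12 without a library, 5.26 at a prominence of 0.25 and 7.81 at 1. Thinning reads to the smallest library moved none of these by more than the spread between replicates. No named zone or segment changed sign. The 10 rises of zones passed in all 130 alternative fits and the 10 falls in 92 of 130. Annotated origins as zone centres were not run.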
